A study of Mus musculus with 5 samples.

Results

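Cytochrome P450 enzymes of families 2 to 4 were described in whole lung from 5 strains of female mice, with 1 array of pooled RNA per strain. Members were all probe sets with a single gene symbol made of Cyp, a family digit from 2 to 4, a subfamily letter and a number, without Cyp2f2, which marks club cells. This gave 61 probe sets for 50 genes out of 18194 genes on the array, with 34 genes in family 2, 5 in family 3 and 11 in family 4. Another 7 probe sets named a gene of these families but fell outside the rule, 4 of them because they carried several symbols and 3 by their own symbol, Cyp2f2 among these, and none of the 7 is counted among the members.

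The parental strain C57 was C57BL/6J. The lines 4B(+/+) and 4B(-/-) were wild type and knockout for the phosphodiesterase PDE4B, and 4D(+/+) and 4D(-/-) for PDE4D, enzymes that break down cyclic AMP. All 4 lines began on a mixed C57BL/6 and 129/Ola background and had at least 11 generations of backcrossing to C57BL/6J. All animals were naive, without the elastase used to produce emphysema, and RNA of 3 of the 5 lungs collected per strain was mixed. A single array of a pool shows no spread between animals, so no difference below has a replicate check and no p-value is given.

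P450 enzymes are haem proteins of the endoplasmic reticulum that insert an oxygen atom into their substrates, with electrons passed on by P450 reductase and cytochrome b5. Families 2 and 3 oxidise drugs, solvents and steroids and include epoxygenases of arachidonic acid, while family 4 hydroxylates the ends of fatty acids and eicosanoids. Most of these genes are known for high expression in liver. In lung the enzymes are found above all in club cells, alveolar type 2 cells and endothelium.

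The promoter of Cyp2e1, the enzyme that oxidises ethanol and other small molecules, is shown because this gene differed most between the strains. That of Cyp2b10, the phenobarbital-inducible enzyme controlled by the receptor CAR, is shown because 3 probe sets measured this gene. Both are the 250 bases before the RefSeq start site in GRCm38.p6, 5′ to 3′, and capitals mark the letters TATAAA.
Cyp2e1 promoter, chr7:140763569-140763818, + strand: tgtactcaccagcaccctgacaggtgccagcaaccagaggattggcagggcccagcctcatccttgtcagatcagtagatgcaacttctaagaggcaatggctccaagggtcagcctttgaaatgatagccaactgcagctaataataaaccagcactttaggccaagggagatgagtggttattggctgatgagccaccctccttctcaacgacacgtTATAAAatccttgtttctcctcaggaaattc
Cyp2b10 promoter, chr7:25897408-25897657, + strand: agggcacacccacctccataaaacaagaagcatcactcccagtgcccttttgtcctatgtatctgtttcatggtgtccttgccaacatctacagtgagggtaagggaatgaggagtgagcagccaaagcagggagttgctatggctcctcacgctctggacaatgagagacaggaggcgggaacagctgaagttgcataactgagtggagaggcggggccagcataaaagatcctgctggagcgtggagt
TATAAA began 31 bases before the start site of Cyp2e1. Of the 11 expressed members with a RefSeq window of this kind, Cyp2e1 was the only one holding TATAAA on either strand, against 12.4% of all 32851 windows. The letters TTANGTAA, the D-box bound by the clock output factors Dbp, Tef and Hlf, were searched on both strands and were in 0 of the 11 windows, against 2.06% of all windows. With 0 matches to TTANGTAA in these windows, the motifs could not overlap.

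Each gene was read from its probe set with the highest mean, and counted as expressed when that mean reached log2 6, an intensity of 64. Of the 50 genes 12 were expressed, 6 of family 2, 6 of family 4 and 0 of family 3, beside 11105 of all 18194 genes. The 12 were Cyp2b10, Cyp2d22, Cyp2e1, Cyp2j6, Cyp2j9, Cyp2s1, Cyp4b1, Cyp4f13, Cyp4f15, Cyp4f16, Cyp4f18 and Cyp4v3. Cyp2j6 and Cyp4f13 sat at the floor, and the other 10 reached 64 in all 5 arrays.

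The 38 remaining genes were read by 42 probe sets with intensities between 3.92 and 47.1, and none of these reached 64 in any array. All 11 member genes of the subfamily Cyp2c, which includes epoxygenases and steroid hydroxylases of liver, lay between 6.02 and 18.3. Cyp2c70, Cyp2c68 and Cyp2c29 were the brightest of them. The 5 Cyp3a member genes, whose products oxidise many drugs, were led by Cyp3a13 at 36.9 to 46.9. Cyp3a11 and Cyp3a25 stayed at or below 7.22. Both Cyp4a member genes, Cyp4a14 and Cyp4a31, targets of the fatty acid receptor Ppara, lay at or below 10.9.

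The other dim members were close to background in the same way. Within Cyp2d, 7 of 8 member genes lay between 4.66 and 35.1, with Cyp2d13 and Cyp2d9 next after Cyp2d22. Within Cyp2b, 3 of 4 lay between 5.83 and 19.8, with Cyp2b9 and Cyp2b13 next after Cyp2b10, and within Cyp2j 3 of 5 lay between 4.93 and 23.1, led by Cyp2j11. Cyp2a12 read 31.7 to 35.5, Cyp2g1 8.56 to 11.4, the vitamin D hydroxylase Cyp2r1 15.1 to 18.7, Cyp2u1 22.3 to 24.8 and Cyp4x1 5.73 to 7.98. In Cyp4f, Cyp4f39 read 42.8 to 47.1 and Cyp4f14 11.7 to 13.3. Folds among such values rest on background and are not given.

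Among markers of lung, the club cell gene Scgb1a1 read 23282 to 25287. Genes of other tissues were read as well, the mucosal gland gene Lipf at 234 to 13730 and the skeletal muscle gene Acta1 at 878 to 7135. All 8 liver genes listed as a check, Alb among them at 23.2 to 32.2, lay under the floor, and their summed intensity was 168 to 176 in all arrays. The median intensity of all probe sets was 45.4 to 46.6 per array. The targeted genes were still read in their knockouts, Pde4b at 457 in 4B(-/-) against 438 to 558 in the other arrays and Pde4d at 386 in 4D(-/-) against 456 to 523. Pde4b in 4B(-/-) was thus above C57, and no source used here gives the deleted parts. In bulk lung, fewer cells of a type and less RNA per cell cannot be told apart.

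**Figure D1:**
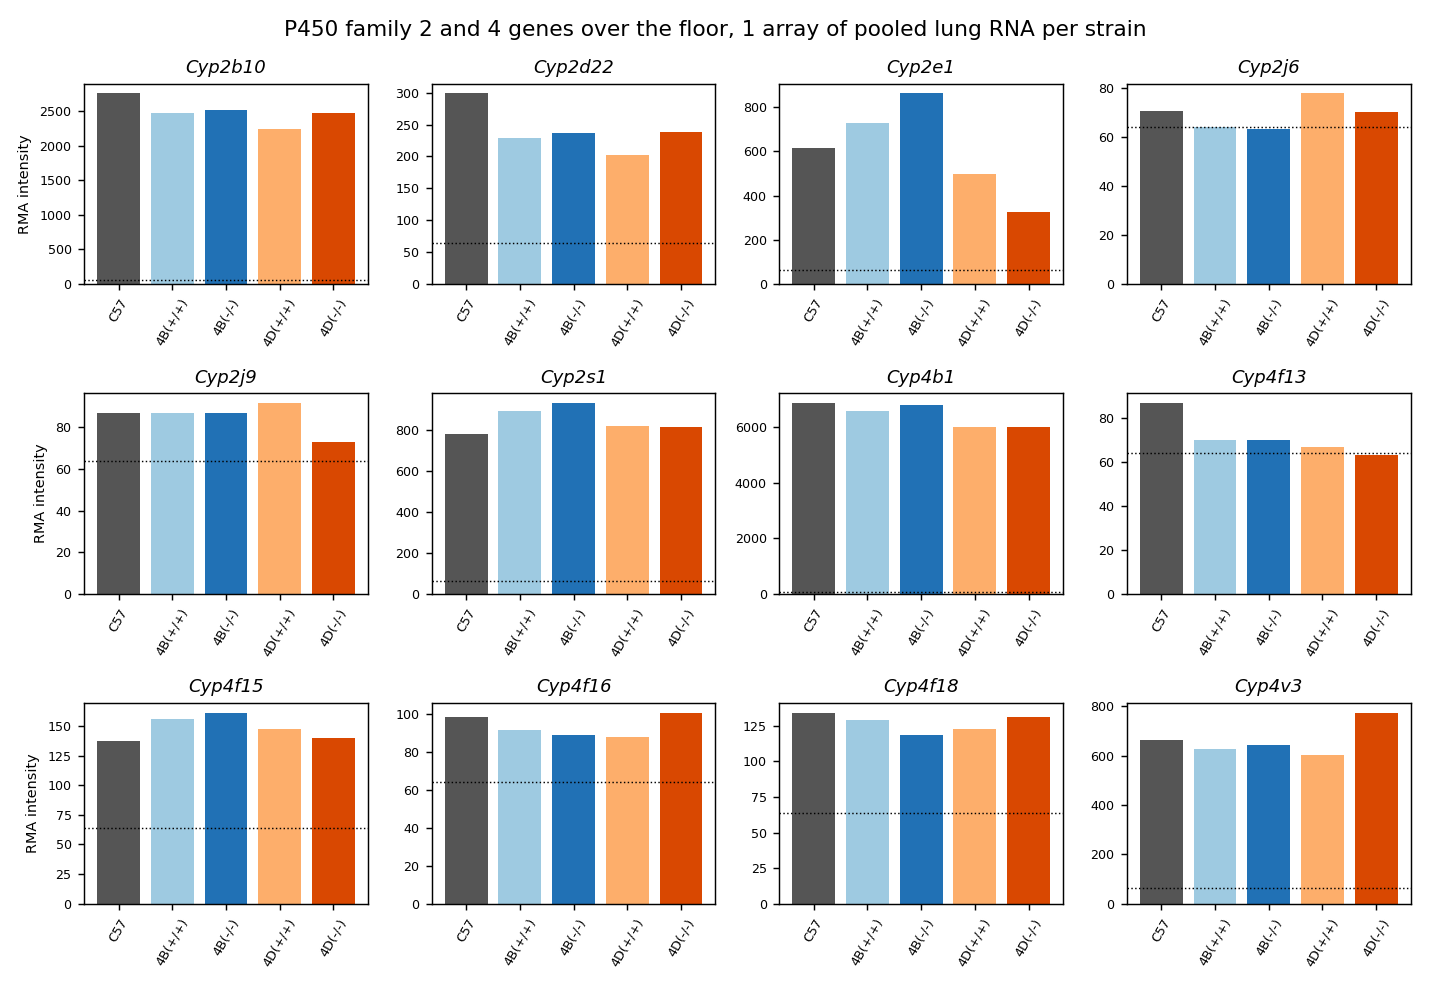
Deposited RMA intensity (y axis, linear, from 0) of the 12 expressed P450 genes in each of the 5 arrays (x axis), with 1 bar per array and the floor of 64 as a dotted line. Cyp2e1 runs from 328 in 4D(-/-) to 863 in 4B(-/-), while every other gene stays within 1.47-fold from its lowest to its highest array.

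Across the 5 arrays most expressed P450 genes stayed under 1.5-fold. The highest array stood over the lowest by 2.63-fold for Cyp2e1, by 1.47-fold for Cyp2d22, by 1.38-fold for Cyp4f13 and by 1.28-fold or less for the other 9. The median of this ratio was 1.23 over the 12 genes and 1.22 over all 11105 expressed genes. A ratio of at least 1.2 was found in 7 of the 12, beside 54.5% of all genes. A ratio of at least 1.5 was found in 1 of the 12, Cyp2e1, beside 12.8% of all genes. The P450 genes thus varied about as much as expressed genes in general, with Cyp2e1 as the widest of them.

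Cyp2e1 read 613 in C57, 730.3 in 4B(+/+), 863 in 4B(-/-), 497 in 4D(+/+) and 328 in 4D(-/-). The PDE4D arrays were the lowest and the PDE4B arrays the highest, with C57 between them and each knockout at the outer end. Of all expressed genes 154 had as wide a range, Cyp2e1 included. Its probe set is the only one for this gene, so no further probe set bears on these values.

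Set against the wild-type line of the same name, Cyp2e1 was 1.52-fold lower in 4D(-/-), just past the 1.5-fold call, and 432 of 11105 genes were as low or lower in this comparison. Centring each array on its median brought the difference from -0.60 to -0.56 on the log2 scale, short of the call. The 4D(-/-) array was 1.87-fold under C57, 2.23-fold under 4B(+/+) and 2.63-fold under 4B(-/-), and these ratios share the 4D(-/-) array. In 4B(-/-), Cyp2e1 was 1.18-fold higher than in 4B(+/+), and 623 genes stood as high or higher in that comparison. Between the wild-type lines and C57 it was 1.19-fold higher in 4B(+/+) and 1.23-fold lower in 4D(+/+).

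Markers of other cells and signs of RNA quality are given beside this difference, and their part in it was not tested. Cyp2e1 is known to be made in fat as well as in liver. The 6 measured adipose genes summed to 1406 in C57, 4768 in 4B(+/+), 3533 in 4B(-/-), 5390.0 in 4D(+/+) and 1089 in 4D(-/-), and all 5 of them over the floor were at least 1.5-fold lower in 4D(-/-) than in 4D(+/+). Of all genes 4.07% were lower by 1.5-fold or more in this comparison. The brown fat gene Ucp1 was 10.7-fold lower there. The fat sum was lowest in 4D(-/-) and highest in 4D(+/+). Cyp2e1 was lowest in 4D(-/-) and second lowest in 4D(+/+), and the part of fat in its values was not tested.

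Other markers moved as well in 4D(-/-) against 4D(+/+). There 4.07% of all genes were at least 1.5-fold lower, and 5.08% passed either way. All 9 skeletal muscle genes were lower, with sums of 9067 and 34795, as were 3 of 4 mucosal gland genes, with a median log2 difference of -1.19. The squamous and basal list had 2 of 3 genes lower, Krt15 by 2.75-fold and Krt4 by 1.62-fold, and all 3 neutrophil genes over the floor were lower. Of 5 alveolar macrophage genes 2 were higher, Marco by 2.66-fold and Chil3 by 1.55-fold.

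Lung epithelial lists held fewer such genes. The sum of 6 ciliated cell genes was 3275 in 4D(-/-) and 3805 in 4D(+/+), and highest in 4B(-/-) at 4219. Of 6 club cell genes 1, the secretoglobin Scgb3a1, was lower in 4D(-/-) by 1.61-fold, with sums of 69623 to 76350.0 over the arrays. Of 7 alveolar type 2 and 6 alveolar type 1 genes 0 passed 1.5-fold in this comparison, beside 5.08% of all genes either way. The Gapdh 3′ to 5′ ratio, a sign of RNA quality, was 1.31 in 4D(+/+) and 1.77 in 4D(-/-), and that of actin was 1.83 and 1.86.

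The xenobiotic enzymes of the airway and alveolus came next. Cyp4b1, a fatty acid hydroxylase that also activates lung toxins, read 6875 in C57, 6592 in 4B(+/+), 6817 in 4B(-/-), 6025 in 4D(+/+) and 5996 in 4D(-/-). Its arrays lay within 1.15-fold, and both PDE4D arrays were the lowest. Cyp2s1, an epithelial enzyme known to be induced through the aryl hydrocarbon receptor, read 785 in C57, 895 in 4B(+/+), 934 in 4B(-/-), 821 in 4D(+/+) and 818 in 4D(-/-). The last 2 values were within a few units of each other. Another target of that receptor, Cyp1a1, read 1074 in 4D(-/-) and 38.5 to 51.4, under the floor, in the other 4 arrays.

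Cyp2b10 read 2756 in C57, 2466 in 4B(+/+), 2514 in 4B(-/-), 2240.1 in 4D(+/+) and 2466 in 4D(-/-) by its brightest probe set. C57 was the highest array by all 3 of its probe sets. The lines 4B(+/+) and 4D(+/+) stood 1.12-fold and 1.23-fold under C57 by the brightest, and the other probe sets gave 1.15-fold and 1.18-fold for 4B(+/+) and 1.29-fold and 1.28-fold for 4D(+/+). In 4D(-/-) against 4D(+/+) the probe sets differed in sign, with log2 differences of 0.14, 0.13 and -0.05. The ending _s_at of 2 of these probe set names marks probes that can match more than 1 transcript, so near-identical Cyp2b genes may add to them.

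Cyp2d22, an enzyme of the drug- and amine-oxidising subfamily Cyp2d, read 299 in C57, 229 in 4B(+/+), 236 in 4B(-/-), 203 in 4D(+/+) and 239 in 4D(-/-). C57 was again the highest, and 4D(+/+) lay 1.47-fold under it, short of the call, with 159 of all genes as low or lower. By the other probe set, at 151 in C57 and 117 to 131 in the lines, 4D(+/+) lay 1.17-fold under C57. In 4D(-/-) the first probe set was 1.18-fold above 4D(+/+) and the other 1.10-fold below it.

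The epoxygenases Cyp2j6 and Cyp2j9, which act on arachidonic acid, were near the floor. Cyp2j9 read 87.0 in C57, 4B(+/+) and 4B(-/-), 91.7 in 4D(+/+) and 73.0 in 4D(-/-). It was 1.26-fold lower in 4D(-/-) than in 4D(+/+), with the other 3 arrays at exactly the same value. Cyp2j6 read 63.4 to 77.9 by its brightest probe set and 64.8 to 73.0 by the other, and the highest array was 4D(+/+) by the first and 4B(+/+) by the second.

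**Figure D2:**
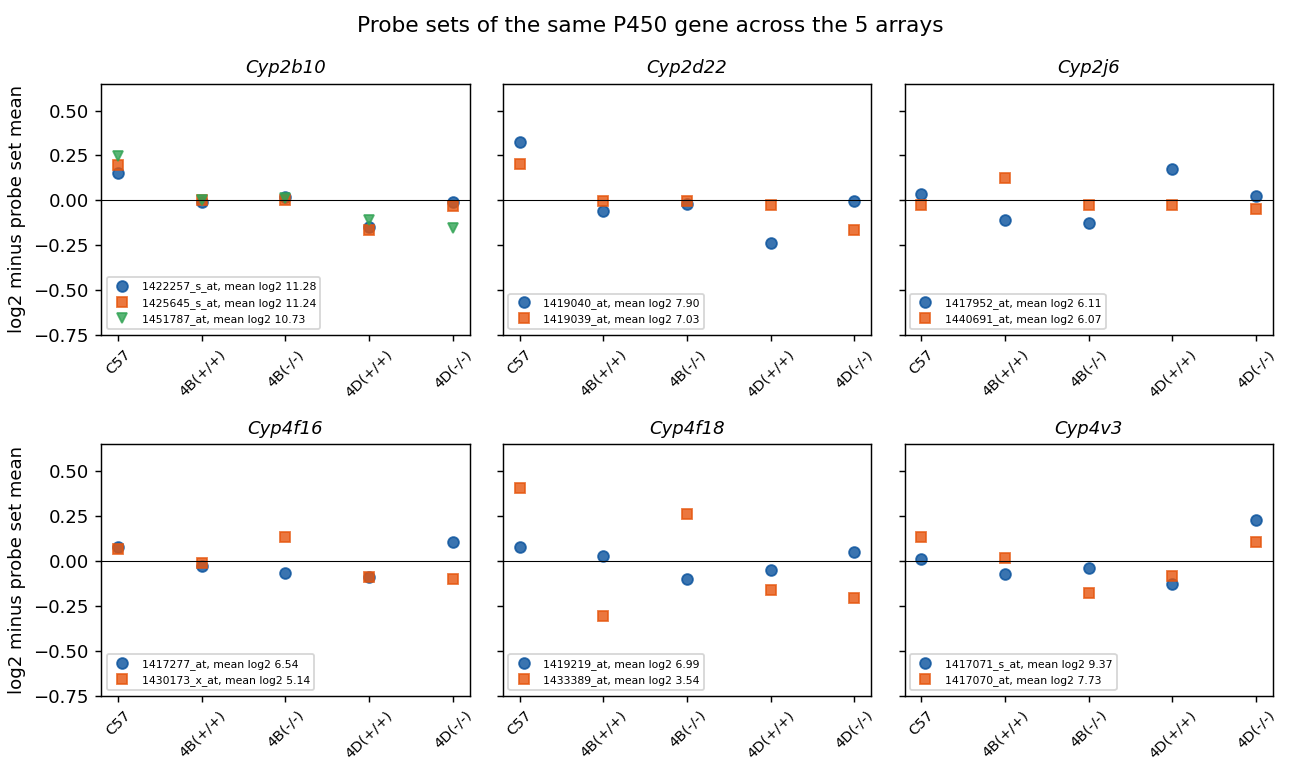
Log2 intensity minus the mean of the same probe set over the 5 arrays (y axis) by array (x axis) for the 6 expressed P450 genes with more than 1 probe set, 1 marker shape per probe set. C57 is highest by every probe set of Cyp2b10 and Cyp2d22 and 4D(-/-) is highest by the brightest probe set of Cyp4v3. The dim second probe set of Cyp4f18 spans 1.64-fold and that of Cyp4f16 1.17-fold.

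Family 4 held the fatty acid and eicosanoid hydroxylases. Cyp4v3, a fatty acid hydroxylase, read 665 in C57, 627 in 4B(+/+), 642 in 4B(-/-), 604 in 4D(+/+) and 774 in 4D(-/-). The 4D(-/-) array stood 1.28-fold above 4D(+/+), under the call but the largest positive difference of the 12 genes in any of the 4 comparisons. By its other probe set 4D(-/-) was 1.14-fold above 4D(+/+), at 230 against 201, but C57 read 234.

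Among the Cyp4f genes, whose products include hydroxylases of leukotrienes, values lay close together. Cyp4f13 read 86.8 in C57, 69.8 in both PDE4B arrays, 66.8 in 4D(+/+) and 63.0 in 4D(-/-). C57 thus stood above the 4 lines, by 1.24-fold over 4B(+/+) and by 1.30-fold over 4D(+/+). Cyp4f15 ranged from 137 in C57 to 161 in 4B(-/-), Cyp4f16 from 87.7 in 4D(+/+) to 100.4 in 4D(-/-), and Cyp4f18 from 119 in 4B(-/-) to 134 in C57. These 3 genes stayed within 1.17-fold over all arrays. Cyp4f18, which is known from neutrophils, was 1.07-fold higher in 4D(-/-) than in 4D(+/+). In the same comparison S100a8, S100a9 and Ltf, the 3 neutrophil genes over the floor, were at least 1.5-fold lower, beside 4.07% of all genes. The other measured genes of that list lay under the floor, Ngp at 21.1 in 4D(+/+) and 21.2 in 4D(-/-), and Camp at 20.7 in both. The part of neutrophils in the Cyp4f18 values was not tested. A second Cyp4f18 probe set at 9.39 to 15.4 lay under the floor. With the median of both probe sets the log2 difference of Cyp4f18 in 4B(-/-) against 4B(+/+) turned from -0.13 to 0.22, with neither past the call.

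In each comparison the count of P450 genes was set beside that of all genes. In 4B(-/-) against 4B(+/+), 0 of 12 passed 1.5-fold either way, beside 1.03% of all genes, and their median log2 difference was 0.03 against 0.01 over all genes. After Cyp2e1 the largest difference was a 1.09-fold lower Cyp4f18. In 4D(-/-) against 4D(+/+), 1 of 12 was lower and 0 higher, beside 5.08% of all genes either way and 4.07% lower. The medians there were -0.01 and 0.00, and the 12 genes ran from -0.60 for Cyp2e1 to 0.36 for Cyp4v3. With 12 genes, 1 call is the smallest count above 0 and lies near these shares.

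In 4B(+/+) against C57, 0 of 12 passed, beside 3.21% of all genes, with medians of -0.07 and 0.00. In 4D(+/+) against C57, 0 of 12 passed, beside 4.9% of all genes, with medians of -0.15 and -0.01. Of the 12 genes 8 stood below C57 in each of these lines, beside 46.7% and 51.2% of all genes, and the 2 comparisons share the C57 array. C57 alone was the highest array for 5 of the 12, Cyp2b10, Cyp2d22, Cyp4b1, Cyp4f13 and Cyp4f18, beside 26.3% of all genes. It was alone the lowest for Cyp2s1 and Cyp4f15, beside 18.4%. List medians in these 2 comparisons were -0.02 and -0.21 for alveolar type 2 and -0.13 and -0.20 for alveolar type 1. Endothelial genes gave -0.19 and -0.18, club cell genes 0.07 and 0.29, and ciliated cell genes 0.20 and 0.11. The Gapdh 3′ to 5′ ratio was 1.72 in C57, 1.37 in 4B(+/+) and 1.31 in 4D(+/+). Skeletal muscle sums were 4457, 8678 and 34795 in the same order. Their part in the P450 differences was not tested.

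**Figure D3:**
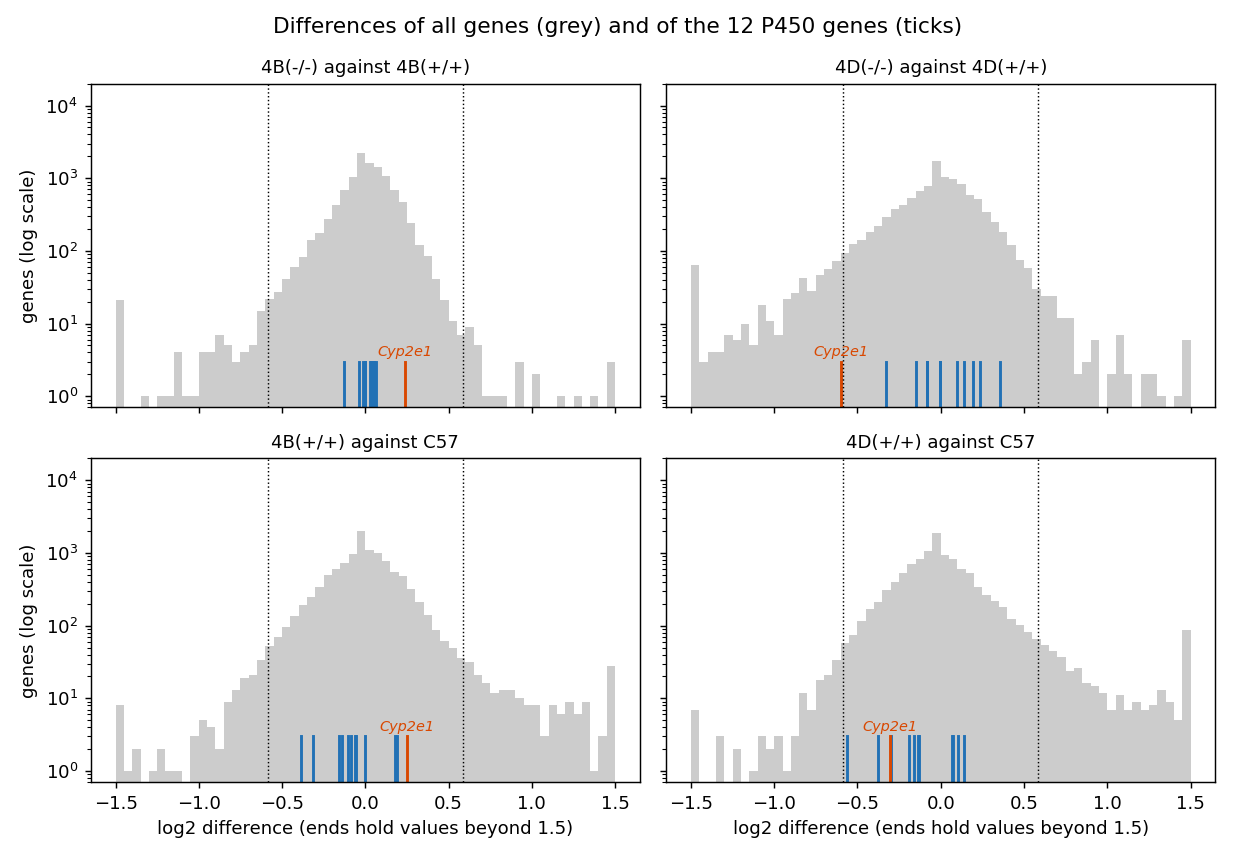
Histograms of the log2 difference (x axis) of all 11105 expressed genes in grey, with the number of genes on a log axis, for the 4 comparisons. Ticks mark the 12 P450 genes, Cyp2e1 in orange, and dotted lines mark 1.5-fold; Cyp2e1 at -0.60 in 4D(-/-) against 4D(+/+) is the only tick past a line.

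The design text of the series asks for genes level in C57 and 4D(+/+) and different in the other 3 arrays. Taken as within 1.2-fold in the first pair, and 1.5-fold or more above or below C57 in all of the rest, this was met by 0 of the 12 genes, although 8 of them were level in C57 and 4D(+/+). It was met by 2 of all 11105 genes, or 0.018%.

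The genes that supply and control P450 enzymes were then described from lists, chosen with earlier results of these data known. Of 8 redox partners and haem genes, such as Cyb5a and the haem synthesis enzyme Alas1, 0 passed 1.5-fold in any of the 4 comparisons. The share of all genes that passed ran from 1.03% to 5.08%. Por, the gene of P450 reductase, was listed but not measured. Of 9 expressed nuclear receptors and other regulators, 1 was lower in 4B(+/+) than in C57, beside 3.21% of all genes either way. This was the aryl hydrocarbon receptor Ahr, at 1168 against 1806. In the other comparisons 0 of the 9 passed. The receptors most tied to these families, Nr1i2 (PXR) and Nr1i3 (CAR), read 15.5 to 26.1 and 19.2, under the floor. The median log2 difference of these lists lay between -0.06 and 0.02.

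Against C57, the clock outputs moved far more than the P450 genes did. Of 9 expressed genes in the list, which holds the factors Dbp, Tef and Hlf known to drive P450 genes in liver, 8 were lower and 1 higher in 4B(+/+) than in C57, and again in 4D(+/+). Of all genes 3.21% and 4.9% passed either way in these comparisons. The medians of the list were -1.36 and -1.33. Dbp read 2475 in C57 and 146 to 247 in the 4 lines, Hlf 381 and 110 to 116, and Per3 385 and 92.1 to 111. The one higher gene was the repressor Nfil3, at 64.9 in C57 and 128 to 154 in the lines, named after its values were seen. In the knockout comparisons 0 of the 9 passed 1.5-fold, beside 1.03% of all genes for 4B(-/-) and 5.08% for 4D(-/-). Cyp2b10 differed between C57 and the lines by at most 1.23-fold in its brightest probe set. Its other probe sets reached 1.29-fold and 1.32-fold. Cyp2d22 was up to 1.47-fold under C57, in 4D(+/+). Cyp2e1 was 1.87-fold under C57 in 4D(-/-) and 1.41-fold above it in 4B(-/-). Any part of the clock outputs in these differences was not tested.

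**Figure D4:**
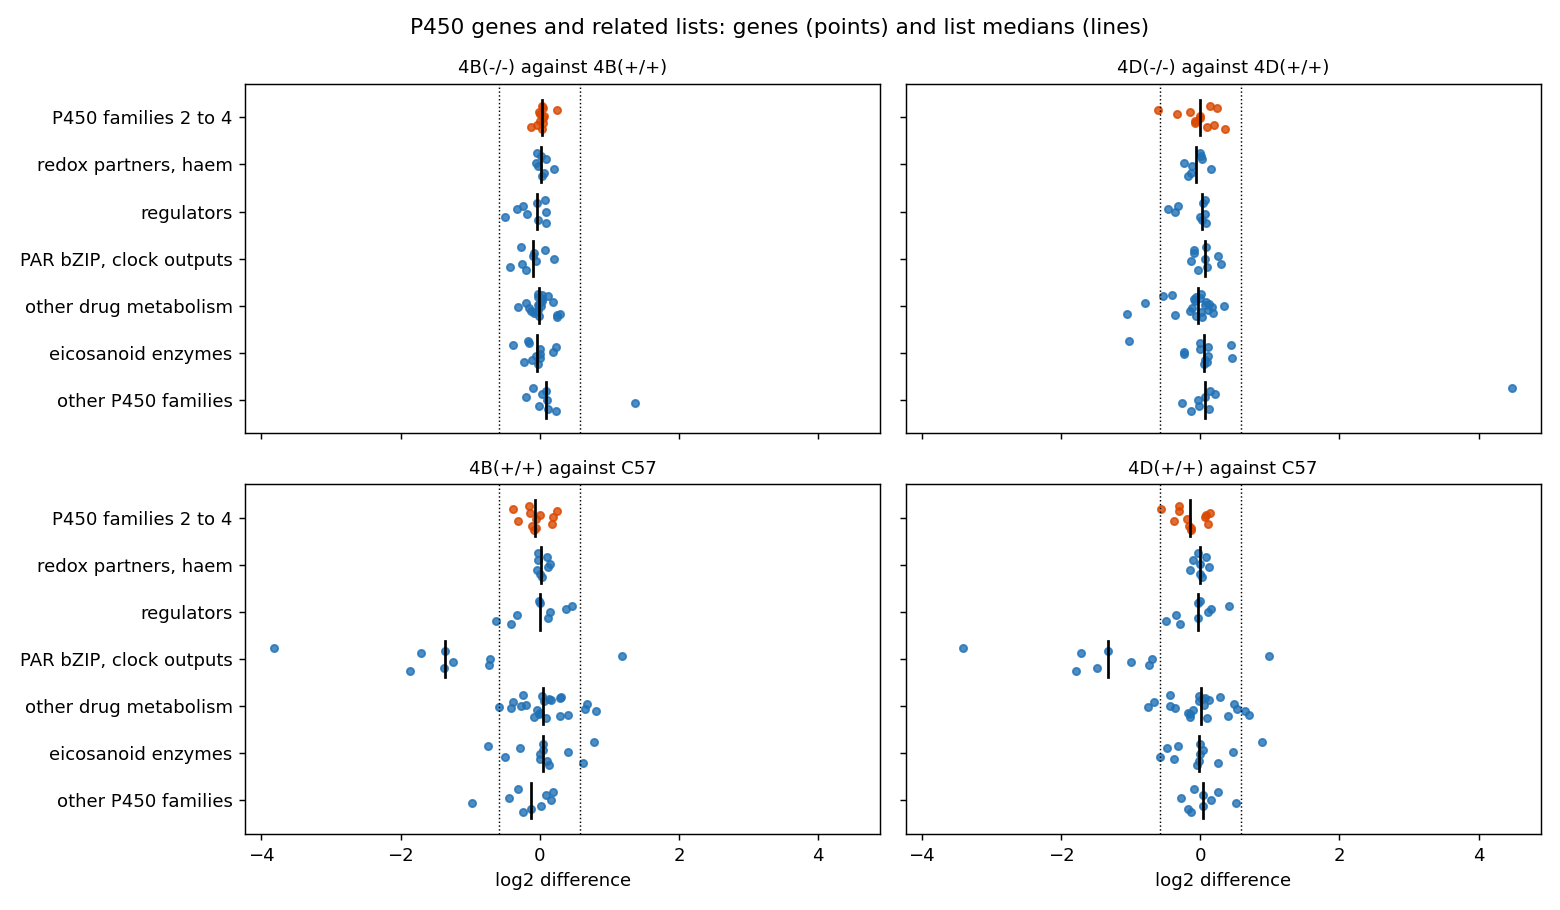
Log2 differences (x axis) of single expressed genes (points) and list medians (black lines) for the P450 genes in orange and 6 related lists in blue, in the 4 comparisons, with dotted lines at 1.5-fold. The PAR bZIP and clock output list has medians of -1.36 and -1.33 in the wild-type lines against C57, while the P450 medians lie between -0.15 and 0.03. The rightmost point in 4D(-/-) against 4D(+/+) is Cyp1a1, which reached the floor in the 4D(-/-) array only.

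Of the enzymes that act beside P450 in drug metabolism few passed the call. Of 22 conjugating and other drug enzymes, 2 were lower in 4D(-/-) than in 4D(+/+), the retinol and alcohol dehydrogenase Adh7 by 2.08-fold and the sulfotransferase Sult1d1 by 1.73-fold, and 0 were higher, beside 5.08% of all genes either way. In 4B(-/-) against 4B(+/+) 0 passed, beside 1.03%. Against C57, 3 were higher and 1 lower in 4B(+/+), beside 3.21% of all genes, and 2 higher and 2 lower in 4D(+/+), beside 4.9%. List medians lay between -0.03 and 0.04. The aldehyde dehydrogenase Aldh3a1 was higher in both lines, at 406 and 361 against 232. The flavin monooxygenase Fmo2 was lower in both, at 3720 and 3332 against 5589.

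Of 12 expressed enzymes of eicosanoid synthesis and breakdown, 1 was lower in 4D(-/-) than in 4D(+/+) and 0 were higher, beside 5.08% of all genes either way. The lower gene was Ephx2, the soluble epoxide hydrolase that clears the epoxides made by Cyp2c and Cyp2j. It read 140.0 in C57, 240.3 in 4B(+/+), 215 in 4B(-/-), 258 in 4D(+/+) and 127 in 4D(-/-), a 2.03-fold difference within the PDE4D lines. The order of the 5 arrays was that of the adipose sums, and the part of fat in it was not tested. Ephx2 and the leukotriene synthase Ltc4s were higher in 4B(+/+) than in C57 and the prostaglandin synthase Ptgs2 was lower, beside 3.21% of all genes either way. In 4D(+/+) against C57, Ephx2 was higher, beside 4.9% of all genes either way. Among 9 expressed genes of other P450 families, Cyp26b1, which clears retinoic acid, passed in 4B(-/-) against 4B(+/+), beside 1.03% of all genes. It was 2.58-fold higher in 4B(-/-) than in 4B(+/+), where it was itself lower than in C57. Cyp1a1, described above, was the other to pass in a knockout comparison, 4D(-/-) against 4D(+/+). Only the 4D(-/-) array lifted its mean over the floor, so this call is not set beside a share of all genes.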

How the data were processed

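Lung RNA was hybridised to 1 array per strain, and the authors deposited 1 intensity per probe set on a linear scale, made with RMA per the submitters' processing notes. RMA corrects background, equalises the arrays and summarises probes; no source used here gives its version, its settings or a genome build. In 67.2% of the 61 member probe sets, and 59.7% of all, values of 2 or more arrays were exactly equal.

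Intensities were taken to log2. Of 45101 probe sets 34958 had 1 symbol in the platform annotation, 932 several and 9211 none, and only the first were used. A gene was its probe set with the highest mean log2, counted when this mean reached 6; differences of at least 1.5-fold were called, with no test. Named were all expressed members, the 3 brightest of each subfamily, and up to 4 called genes of each list. Promoters came from RefSeq (GRCm38.p6) by symbol; no coordinates of the arrays are given. The members and lists were chosen with earlier results of these data known. The counting was tested on simulated data. Alternatives were 2-fold, other floors on dim genes, the median over probe sets, probe sets in place of genes, cyclic loess (limma 3.58.1 in R 4.3.3), median centring and other reference arrays. The number of arrays limits the precision.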

Additional observations from a re-analysis of the deposited data

How the results depend on the processing

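The single call, Cyp2e1 lower in 4D(-/-) than in 4D(+/+), was made under 8 alternatives: floors on the highest array, at log2 7 or none, the median of the probe sets, probe sets counted in place of genes, cyclic loess, and, with other references, C57 and the mean of the 3 wild-type arrays. Cyp2e1 has 1 probe set, which read at least 328 in every array, so the floors and the probe set choices could not change this call. The call was lost, with 0 of 12 genes called, at 2-fold and under median centring, where the log2 difference of Cyp2e1 was -0.56. In the other 3 comparisons 0 members were called under each alternative run, and 0 met the filter of the design text. Of 192 alternative values for single genes 191 kept their side of the call or stayed uncalled. Median centring moved the differences of all genes by at most 0.045 and cyclic loess their median by at most 0.03 on the log2 scale. No paired analysis was possible because each strain has 1 array. Intensities under 64 limit what can be said of the 38 dim genes, and no replicate can be left out.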
